A study of Mus musculus with 10 samples.

Results

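Car2, Car8, Car9, Car12 and Car13 are 5 genes of the carbonic anhydrase family, taken by symbol from a count table of 22457 genes in which 14 carbonic anhydrases have a row. The 5 were selected on their family and, for Car12 and Car13, on lower counts seen in M3-CKO, so the differences between the groups are described here without a test. The RNA came from mouse tracheal epithelial organoids, structures that basal cells, the stem cells of the airway surface, form in a gel. The Ctrl group has 3 RNA-seq libraries from control mice, and the M3-CKO group has 3 from mice that the series title names as a Mettl3 knockout, all harvested on day 14. Mettl3 is the catalytic subunit of the complex that places N6-methyladenosine on mRNA. The Cre driver, the control genotype, the age of the mice and whether replicates are separate animals are not stated in the labels. Both groups grew in the same media, which held retinoic acid, cholera toxin, epidermal growth factor and, in the growth phase, the receptor inhibitors A83-01 and DMH-1 and serum. A ROCK inhibitor was present in the first days, and a serum-free medium followed for differentiation.

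Carbonic anhydrases are zinc enzymes that turn carbon dioxide and water into bicarbonate and a proton, and back. Some work in the cytosol, some in mitochondria and some as membrane proteins whose active site faces outside, and a few relatives have lost the activity. In airway epithelium they feed the secretion of bicarbonate, which sets the pH of the surface liquid and the unfolding of mucins. Levels are given as CPM, counts scaled to library size, which rank libraries for 1 gene but not genes against each other, because transcript length is not corrected. Values per group are listed in the order of replicates 1 to 3.

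Car12 and Car9 encode the membrane enzymes with an outward active site. Car12 has a role in salt and bicarbonate transport of secretory epithelia, and in people its inherited loss leads to salt wasting in sweat. Car9 is a classic target of the hypoxia-inducible factor HIF. A promoter window of 300 bases around an annotated start, from RefSeq on GRCm38.p6, was found for these genes only among the 5, and both are shown because Car12 had the lowest log2 fold change of the group and because the HIF control of Car9 is known from its promoter. They lie on the plus strand at chr4:43506776-43507075 and chr9:66713436-66713735. Capitals mark matches, on either strand, to the HIF core ACGTG, the AP-1 site TGACTCA, the cyclic AMP element TGACGTCA, the GC box CCGCCC and the TATA box TATAAA.
Car9: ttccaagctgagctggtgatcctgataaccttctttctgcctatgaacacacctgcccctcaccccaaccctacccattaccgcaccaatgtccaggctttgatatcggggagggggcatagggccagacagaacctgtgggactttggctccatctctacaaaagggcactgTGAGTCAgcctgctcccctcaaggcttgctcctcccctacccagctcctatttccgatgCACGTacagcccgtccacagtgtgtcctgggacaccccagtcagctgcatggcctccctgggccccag
Car12: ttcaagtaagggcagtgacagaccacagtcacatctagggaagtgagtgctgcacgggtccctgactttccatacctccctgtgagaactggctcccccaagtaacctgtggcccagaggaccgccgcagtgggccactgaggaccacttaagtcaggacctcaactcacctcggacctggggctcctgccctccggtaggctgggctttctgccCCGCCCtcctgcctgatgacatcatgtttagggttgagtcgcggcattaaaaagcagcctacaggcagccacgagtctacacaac
In the Car9 window the HIF core lay on the minus strand with its leftmost base at -18 from the start, and the AP-1 site, also on the minus strand, at -77. The Car12 window held a GC box at -35, and neither window held the cyclic AMP element or the TATA box in these letters. Of 32851 windows of this length, 19.6% held the HIF core, 5.20% the AP-1 site, 1.79% the cyclic AMP element, 35.7% the GC box and 13.6% the TATA box. The matches do not overlap each other, and they describe letters, not binding.

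Car12 measured 158.8, 158.5 and 76.4 CPM in the Ctrl libraries and 4.05, 2.16 and 17.5 CPM in the M3-CKO libraries. The groups did not overlap, with all of M3-CKO lower, and the ratio of an M3-CKO to a Ctrl library ran from 1.36% to 23.0% over the 9 pairs. The means were 131.3 ± 47.5 (SD, n = 3) and 7.92 ± 8.39 CPM, a log2 fold change of -4.04 (SE 0.73), which ranked 14 of 13528 tested genes from the lowest. The M3-CKO libraries differed among themselves: replicate 3 held 5.65 times the mean of replicates 1 and 2. The lowest value, in replicate 2, rests on 19 counts, with an exact Poisson 95% interval of 1.30 to 3.38 CPM that covers counting error only, and the interval of replicate 3 was 15.03 to 20.4 CPM. Leaving out that library gave a log2 fold change of -5.38.

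For Car9 the Ctrl libraries held 143.3, 34.0 and 41.4 CPM and the M3-CKO libraries 16.6, 24.0 and 17.4 CPM. Here the wide spread was in Ctrl, where replicate 1 lay far above the other libraries, while the M3-CKO libraries lay close together and below all of Ctrl. The log2 fold change of -1.91 (SE 0.54) was -0.96 without Ctrl replicate 1, so that library carried much of it.

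Car13 and Car2 encode cytosolic enzymes, and Car2 is the fast, widely expressed form. Car13 had the tightest values of the 5 genes in Ctrl, with 129.5, 120.2 and 139.5 CPM, and the M3-CKO libraries held 38.8, 40.4 and 33.3 CPM. The groups were far apart next to this spread, at 129.7 ± 9.68 against 37.5 ± 3.75 CPM, and each M3-CKO library held 23.8% to 33.6% of a Ctrl library. Its log2 fold change of -1.79 (SE 0.15) stayed between -1.85 and -1.71 with any 1 library left out.

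Car2 was the exception in the group. Ctrl libraries held 22.3, 7.28 and 7.85 CPM of it and M3-CKO libraries 5.30, 3.98 and 14.5 CPM. The groups overlapped, since M3-CKO replicate 3 lay above Ctrl replicates 2 and 3, and the log2 fold change of -0.65 (SE 0.61) became 0.07 without Ctrl replicate 1. Like Car12, Car2 was higher in M3-CKO replicate 3 than in replicates 1 and 2, by 3.13 times their mean, and like Car9 it was highest in Ctrl replicate 1.

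Car8 encodes a relative with no enzyme activity, which binds the type 1 IP3 receptor, a calcium channel of the endoplasmic reticulum. Its RNA came to 116.9, 86.5 and 118.7 CPM in Ctrl and to 33.8, 30.5 and 30.5 CPM in M3-CKO. The M3-CKO libraries were nearly equal and well below Ctrl, at 29.5% of its mean. The log2 fold change of -1.76 (SE 0.18) was close to that of Car13, and it ran from -1.90 to -1.69 with any 1 library left out.

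**Figure D1:**
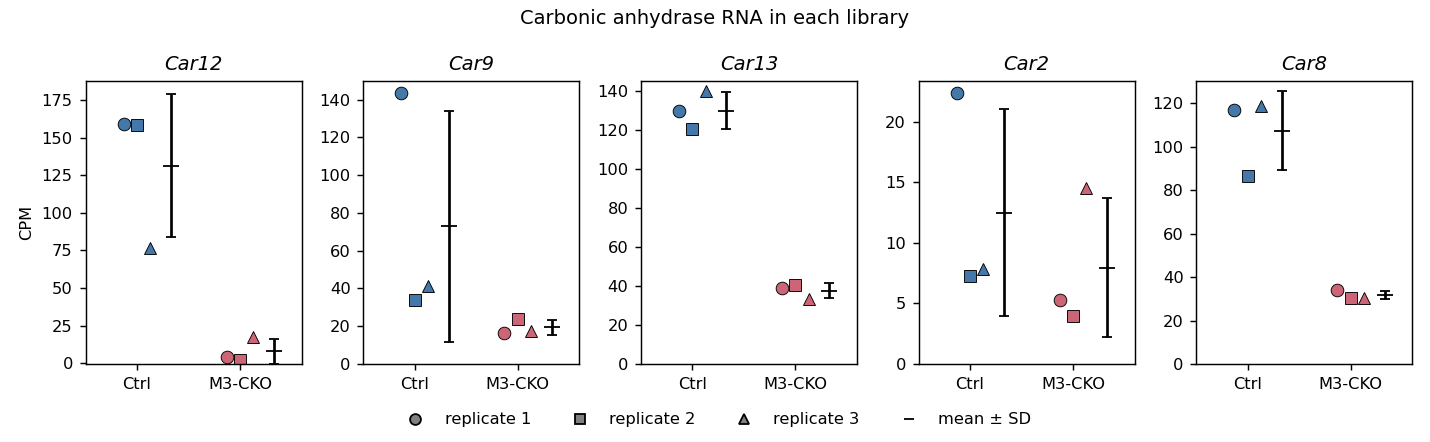
CPM (vertical axis, a separate linear scale for each gene) of the 5 carbonic anhydrases in each of the 3 Ctrl and 3 M3-CKO libraries; points are libraries, and the bar beside them is the mean ± SD. Car12, Car9, Car13 and Car8 have all M3-CKO points below all Ctrl points, while the groups of Car2 overlap.

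All 5 genes passed the filter on low counts. In edgeR's quasi-likelihood fit over all genes, with a Benjamini-Hochberg adjusted p under 0.05, 3 of the 5 (Car8, Car12 and Car13) were called lower and 0 higher, beside 1.16% of all tested genes called lower and 1.74% called higher. Groups did not overlap, with M3-CKO lower, for 4 of the 5 and for 13.5% of all tested genes. Since the genes were chosen with this contrast known, nothing is read from these counts. They also changed with single libraries, as did calls over the whole table. Without any 1 of the Ctrl libraries 0 of the 5 were called, and only Car13 without M3-CKO replicate 1 or 2. Over the whole table, 0, 1 and 0 genes were called without Ctrl replicates 1, 2 and 3. Without M3-CKO replicates 1 and 2 the whole table had 14 and 18 genes called. DESeq2, and edgeR with no low-count filter, called Car9 as well.

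**Figure D2:**
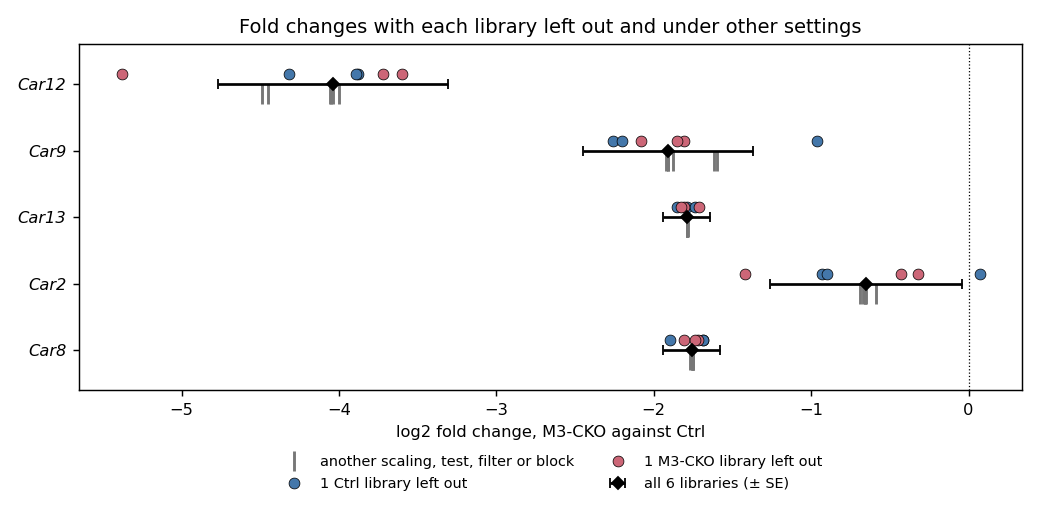
Log2 fold change of M3-CKO against Ctrl (horizontal axis) for each of the 5 genes; diamonds with bars are the value ± SE from all 6 libraries, circles leave out 1 library each, and ticks are other scalings, tests, filters or the replicate block. Car13 and Car8 stay within -1.90 and -1.69, while Car12 reaches -5.38 without M3-CKO replicate 3, Car9 -0.96 and Car2 0.07 without Ctrl replicate 1.

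Among the libraries, totals ran from 8906375 to 10485922 counts, so 10 CPM rest on 87.8 to 103.8 counts. M3-CKO replicate 3 stood apart, with a Pearson r across genes of 0.919 and 0.908 to the other M3-CKO libraries, against 0.985 between those. The targeted gene Mettl3 was at 16.9 ± 1.95 CPM in Ctrl and 10.4 ± 0.632 CPM in M3-CKO, with no overlap but no call (log2 fold change -0.70, SE 0.21, adjusted p = 0.12). DESeq2 made the call, as did edgeR with M3-CKO replicate 3 left out (adjusted p = 0.049 and 0.043). A count over the whole gene can hold reads from outside the deleted part, which the labels do not state.

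Summed markers of epithelial cell states also differed between libraries, but not all of their genes went in the same direction. As background for the calls in these lists, edgeR called 1.16% of all tested genes lower and 1.74% higher. The lists were chosen with earlier results of these data known, so nothing is read from the counts of calls. The basal cell list (12 of 12 genes with a row, 3 called lower by edgeR) summed to between 2660 and 3159 CPM in Ctrl and between 1560 and 1604 CPM in M3-CKO. Krt15, its highest gene in Ctrl, averaged 1010 and 215.3 CPM, while Itga6 averaged 407.6 and 544 CPM with overlapping groups. The hillock and squamous list (10 of 11 with a row, 2 called lower and 1 higher) summed to between 679.5 and 827.7 CPM and between 236.8 and 303.5 CPM. Most of that sum was Krt4, which averaged 540.1 CPM in Ctrl and 152.5 CPM in M3-CKO. The gene called higher was Lor, at 0.257 and 6.53 CPM on average. The club cell list (13 of 13, 1 called lower and 1 higher) summed to between 12760.5 and 14446 CPM in Ctrl, and to 6480.5, 5626 and 15016 CPM in the M3-CKO libraries. Its highest gene was Cbr2, at 3868 and 2399 CPM on average, and the gene called lower was Ltf (log2 fold change -1.52). The gene called higher was Scgb1a1, which hardly shows in the sum. It measured 5.56, 4.33 and 2.80 CPM in Ctrl and 83.0, 37.5 and 357.5 CPM in M3-CKO (log2 fold change 5.23). The library with the high club cell sum, M3-CKO replicate 3, is also the one in which Car2, Car12 and the mitochondrial Car5b were highest within M3-CKO. Car8, Car9 and Car13 were not raised there, at 0.949, 0.860 and 0.840 times the mean of replicates 1 and 2. The part of cell makeup in these differences was not tested, and in bulk RNA fewer cells of a type and less RNA per cell cannot be told apart.

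**Figure D3:**
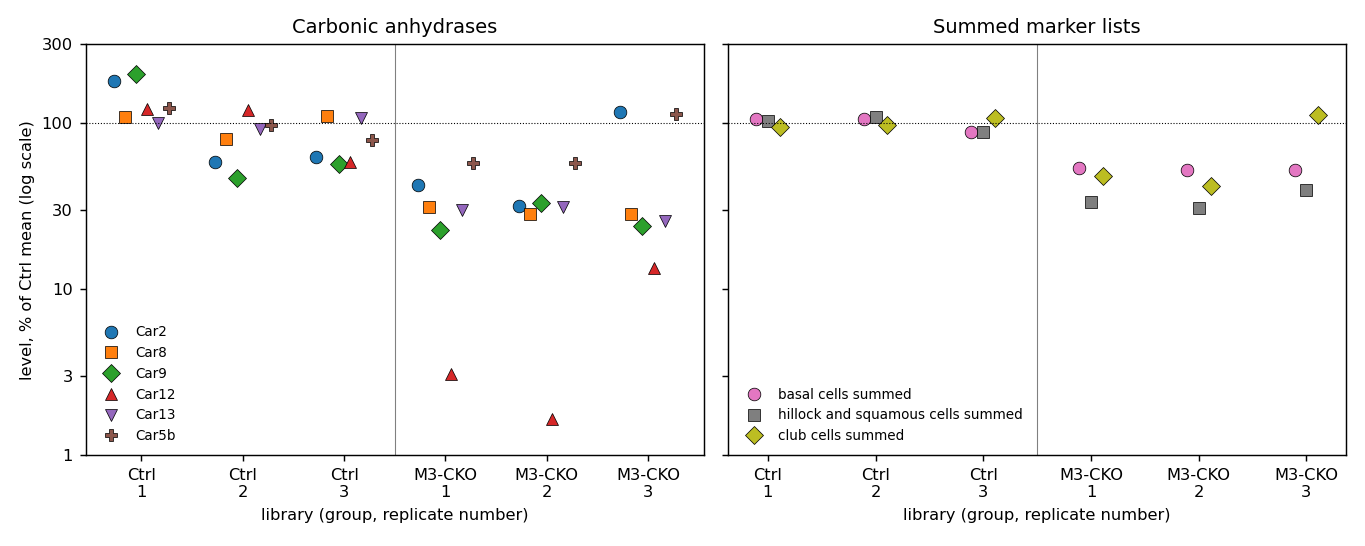
Level in each library as a percentage of the Ctrl mean (vertical axis, log scale) for 6 carbonic anhydrases (left) and for the summed CPM of 3 marker lists (right); the horizontal axis gives the library, and the dotted line marks the Ctrl mean. In M3-CKO replicate 3, Car2, Car5b and the club cell sum stand above the Ctrl mean and Car12 reaches 13.4% of it, while Car8, Car9 and Car13 stay low.

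Among lineages that a tracheal preparation could carry along, the red blood cell, mesenchymal and endothelial lists were low and partly without a row. The immune list and the lists of ionocytes, tuft cells and multiciliated cells summed higher. Carbonic anhydrases are abundant in red blood cells, but the 4 erythrocyte genes with a row summed to at most 0.963 CPM in any library, and Car1 and the 4 haemoglobin genes listed have no row. The mesenchymal genes with a row, 6 of 10, summed to between 4.69 and 13.3 CPM in Ctrl and between 2.39 and 3.85 CPM in M3-CKO. The endothelial genes, 4 of 8, reached 0.448 to 0.981 CPM and 1.52 to 2.05 CPM. Immune genes, 8 of 13, summed to between 466.3 and 1349 CPM and between 384.5 and 734.3 CPM, most of it Lyz2, a lysozyme gene also known from airway epithelium. Ionocyte genes, 8 of 8, summed to between 69.3 and 105.5 CPM in Ctrl and between 59.7 and 75.9 CPM in M3-CKO. Tuft cell genes, 7 of 8, summed to between 112.6 and 189.1 CPM and between 129.9 and 157.2 CPM, and multiciliated cell genes, 11 of 12, to between 517 and 545.9 CPM and between 536.1 and 805.3 CPM. Most of each came from 1 gene: Dclk1 averaged 143.1 CPM in Ctrl and 139.9 CPM in M3-CKO, and Tubb4b 496.6 and 559.6 CPM. Foxj1, the regulator of motile cilia, hardly shows in that sum; it averaged 18.5 ± 14.2 CPM in Ctrl and 53.4 ± 22.6 CPM in M3-CKO, with overlapping groups (adjusted p = 0.17). None of these 7 lists had a member called by edgeR with all 6 libraries, beside 2.91% of all tested genes. Few of their genes were tested: 8 multiciliated, 5 ionocyte, 3 immune, 2 tuft and 1 mesenchymal, with 0 erythrocyte and 0 endothelial. Nothing is read from the lack of calls.

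The other 9 carbonic anhydrases with a row were mostly near zero, and 2 of them, Car5b and Car14, were tested. Car5b, a mitochondrial enzyme, measured 136.2, 108.1 and 87.1 CPM in Ctrl and 63.9, 64.0 and 126.0 CPM in M3-CKO. Its groups overlapped through M3-CKO replicate 3 (log2 fold change -0.38, SE 0.30, adjusted p = 0.53). Car14, a membrane enzyme, averaged 0.621 CPM in Ctrl and 2.38 CPM in M3-CKO, with overlapping groups (1.92, SE 1.04, adjusted p = 0.35). The cytosolic Car7 had 7, 17 and 12 counts in Ctrl and 1, 4 and 4 counts in M3-CKO, too few for the filter. Car15, which is tethered to the membrane in mice, and the inactive relative Car11 had 4 to 42 counts in each library. Car3, Car5a, Car6 and Car10 had 0 to 4 counts, and Car1 and Car4 have no row, so they have no value here. Over the 14 rows, groups did not overlap, with M3-CKO lower, for 5 (Car7 besides the 4 above) and with M3-CKO higher for 0, beside 13.5% and 13.6% of all tested genes. These shares are over tested genes only, while 7 of the 14 rows were tested and Car7 was not. As the 4 were chosen with this contrast known, nothing is read from the count.

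On chromosome 3 the annotation order is Car13, Car1, Car3, Car2, and this stretch did not share a pattern: Car13 was low in all M3-CKO libraries, Car3 had 2 counts in all, and Car2 overlapped between groups. The nearest genes with a row on each side of the 5 were 9 in number, with up to 12 annotated genes without a row between. Of these 9, 7 were tested and 0 called by edgeR, DESeq2 or limma-voom, with 0 at an unadjusted edgeR p under 0.05. The shares of all tested genes were 2.91%, 10.4%, 2.23% and 20.5%, so nothing is read from the lack of calls among so few neighbours. The log2 fold changes of the tested neighbours ran from -0.34 to 0.39. Next to Car12, Usp3 had a value of 0.32 (SE 0.14) and Aph1b one of -0.24 (SE 0.20). Beside Car9, those of Arhgef39 and Tpm2 were -0.34 (SE 0.44) and -0.29 (SE 0.23).

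The genes whose levels followed those of Car12 and Car13 most closely were sought among 10545 tested genes with a mean of at least 5 CPM, by the Pearson r of log2 CPM over the 6 libraries, given as a description because the group difference alone makes r high. For Car12 they were Ing5 (r = 0.998), the hillock keratin Krt4 (0.996), Plscr4 (0.996), Mat2a (0.995), which makes S-adenosylmethionine, the methyl donor, and Dock8 (0.995). Krt4 measured 610.7, 555.1 and 454.6 CPM in Ctrl and 136.0, 109.0 and 212.4 CPM in M3-CKO, with the same order of libraries within M3-CKO as Car12. For Car13 they included Phf8 (0.997), Mrtfb (0.995), Rab14 (0.995) and Ralgapa2 (0.993). A high r does not mean an equal fold: the log2 fold change of Ing5 was -0.47 beside -4.04 for Car12, and that of Mrtfb was -0.51 beside -1.79 for Car13. Among the 5 genes themselves, r was 0.99 for Car8 and Car13 and 0.34 for Car2 and Car13.

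Around the carbonic anhydrases, 7 lists of genes that carry, use or sense bicarbonate and protons, or that are linked to Car8 or Car9, were compared by the same fit. As background for the counts below, edgeR called 2.91% of all tested genes, limma-voom 2.23% and DESeq2 10.4%, and 20.5% had an unadjusted edgeR p under 0.05. The only member called by edgeR was Slc16a3, the lactate and proton carrier MCT4. It rose from 27.3, 30.7 and 25.3 CPM in the Ctrl libraries to 50.9, 66.5 and 62.5 CPM in the M3-CKO libraries (log2 fold change 1.11, SE 0.17, adjusted p = 0.029). DESeq2 and limma-voom also called it (adjusted p = 1.2e-05 and 0.035). In edgeR the call was lost without any 1 library other than M3-CKO replicate 3 (adjusted p = 0.097 to 0.16). It was kept without that library (adjusted p = 0.0035). Over the whole table the fits that lost it called 0 to 18 genes, and the fit that kept it called 3483. The log2 fold change of Slc16a3 stayed between 1.04 and 1.22 with any 1 library left out.

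Of the other acid extrusion genes 13 of 14 tested were not called, 6 of the 14 had an unadjusted p under 0.05, DESeq2 called 5, and the median log2 fold change was -0.20 beside 0.02 for all tested genes. Basigin (Bsg), a chaperone of MCT4, was at 4278 ± 837.3 CPM in Ctrl and 2995 ± 121.4 CPM in M3-CKO (-0.51, SE 0.20, adjusted p = 0.21). Slc16a7, the carrier MCT2, was at 327.7 ± 32.1 and 212.0 ± 12.95 CPM (-0.63, SE 0.15, adjusted p = 0.068). Their values lay in the opposite direction to that of Slc16a3. Neither was called by edgeR with all 6 libraries, while Slc16a7 was called by DESeq2 (adjusted p = 0.004) and by edgeR without M3-CKO replicate 3 (adjusted p = 0.013).

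Among bicarbonate transporters edgeR and limma-voom called 0 of 12 tested, DESeq2 called 2, 3 had an unadjusted p under 0.05, and the median was 0.34. The sodium bicarbonate cotransporter Slc4a4 stood at 289.1 ± 40.0 CPM in Ctrl and its M3-CKO libraries held 527.2, 489.1 and 149.8 CPM, so M3-CKO libraries lay on both sides of Ctrl (0.43, SE 0.42, adjusted p = 0.62). Slc4a7, another such cotransporter, was at 249.8 ± 17.8 and 215.4 ± 43.1 CPM (-0.21, SE 0.19, adjusted p = 0.57).

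In the list of water and salt transport edgeR and limma-voom called 0 of 11 tested and DESeq2 1, with 3 at an unadjusted p under 0.05 and a median of -0.36. The water channel Aqp4 was at 3536 ± 292.9 CPM in Ctrl and 2580 ± 416.2 CPM in M3-CKO without overlap (-0.45, SE 0.19, adjusted p = 0.24). Aqp5, the water channel of secretory cells, was near 2885 CPM in Ctrl and reached 4448 CPM in M3-CKO replicate 3 alone (-0.02, SE 0.33, adjusted p = 0.98). M3-CKO replicates 1 and 2 held 2000 and 2076 CPM, below all Ctrl libraries. Without M3-CKO replicate 3 its log2 fold change was -0.51 (edgeR adjusted p = 0.035), in a fit that called 3483 genes over the whole table.

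Of the enzymes that use bicarbonate, edgeR and limma-voom called 0 of 8 and DESeq2 1, with 1 at an unadjusted p under 0.05 and a median of -0.11. Pyruvate carboxylase (Pcx) measured 60.3, 55.8 and 208.0 CPM in the M3-CKO libraries, below and above the 120.7 ± 7.97 CPM of Ctrl (log2 fold change -0.16, SE 0.48, adjusted p = 0.89), and Acaca, an acetyl-CoA carboxylase, had a value of 0.34 (SE 0.27, adjusted p = 0.53).

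Sensors of pH and bicarbonate gave 0 of 5 by edgeR and limma-voom and 2 by DESeq2, with 2 at an unadjusted p under 0.05 and a median of -0.79. The list includes Ptprg and Ptprz1, receptor phosphatases with an outer domain like a carbonic anhydrase. Ptprz1 was at 21.2 ± 2.32 CPM in Ctrl and 12.3 ± 0.477 CPM in M3-CKO (-0.79, SE 0.20, adjusted p = 0.078), and for Ptprg the log2 fold change was -0.31 (SE 0.18, adjusted p = 0.40). DESeq2 called Ptprz1 (adjusted p = 0.011), as did edgeR without M3-CKO replicate 3 (adjusted p = 0.016).

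The IP3 receptors, a family whose type 1 member (Itpr1) binds the Car8 protein, gave 0 of 3 by edgeR and limma-voom and 1 by DESeq2, with 2 at an unadjusted p under 0.05. All 3 had M3-CKO libraries below Ctrl without overlap, as had 13.5% of all tested genes, with a median of -0.52. Itpr1 measured 95.9, 117.6 and 120.9 CPM in Ctrl and 70.6, 62.5 and 78.8 CPM in M3-CKO (log2 fold change -0.66, SE 0.16, adjusted p = 0.074). DESeq2 called Itpr1 (adjusted p = 0.013), as did edgeR without M3-CKO replicate 3 (adjusted p = 0.008). Itpr3 had a value of -0.52 (SE 0.16, adjusted p = 0.12).

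Hypoxia genes, listed because Car9 is a HIF target, gave 0 of 18 by edgeR and limma-voom and 2 by DESeq2, with 2 at an unadjusted p under 0.05. Their log2 fold changes lay between -0.64 and 0.49 with a median of -0.26, so the -1.91 of Car9 lay outside their range. Ero1a, an oxidase of the endoplasmic reticulum, had a value of -0.53 (SE 0.38, adjusted p = 0.49), and the oxygen sensor Egln3 one of 0.24 (SE 0.31, adjusted p = 0.71).

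**Figure D4:**
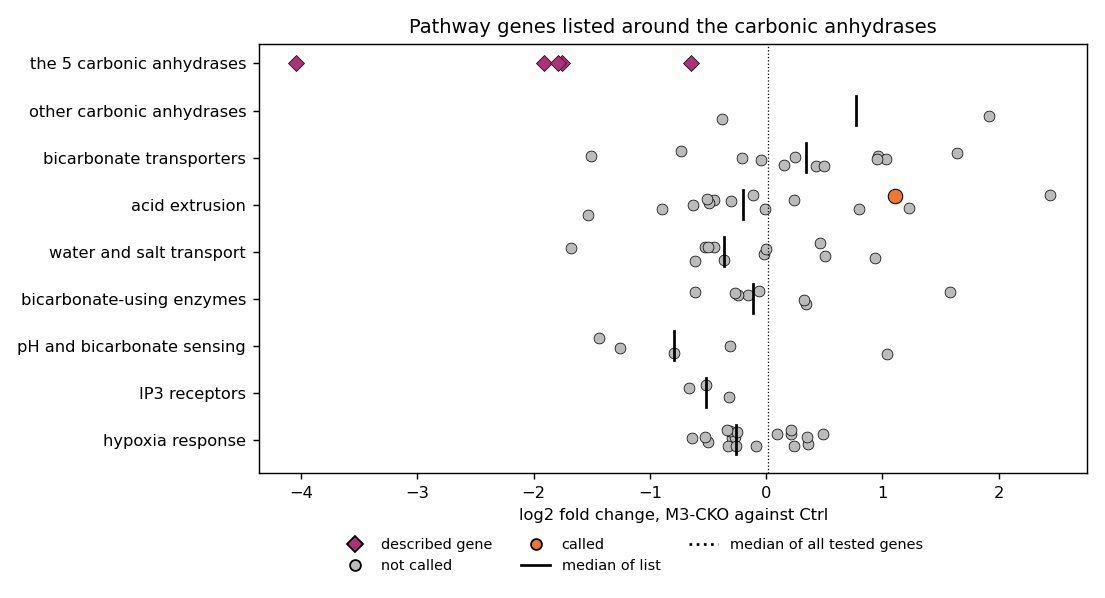
Log2 fold change of M3-CKO against Ctrl (horizontal axis) for the 5 carbonic anhydrases (diamonds) and for the tested genes of 8 pathway lists (circles, spread vertically for sight); black bars are list medians and the dotted line is the median of all tested genes, 0.02. Slc16a3 is the only gene of the lists called by edgeR, at 1.11, and Car12 at -4.04 lies below every listed gene.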

How the data were processed

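RNA-seq counts of 6 libraries from day 14 organoids were used, 3 per group; the 4 libraries of the m6A immunoprecipitation were not analysed here. The values the authors deposited are raw whole-number counts per gene symbol. The submitters' processing notes name featureCounts, HISAT2 and Trim Galore with build mm39. Versions, annotation, strand and multi-mapping settings are not given in these sources, so reads shared with near-identical or overlapping genes are uncertain. The members and gene lists were chosen with earlier results of these data known.

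The counts were fitted with edgeR 4.0.16 in R 4.3.3 (filterByExpr, TMM factors, glmQLFit, glmQLFTest, no covariate, two-sided), and p-values were adjusted by Benjamini-Hochberg over 13528 tested genes. CPM use TMM-scaled library sizes. The SE of a log2 fold change is its size over the square root of F. For the log2 CPM of r, a prior count of 2 was used. Alternatives were DESeq2 1.42.0 size factors and Wald test, limma-voom (limma 3.58.1), library size alone, no low-count filter, a replicate block, and leaving out each library. The edgeR fit was checked on simulated counts with known changes. No pair of libraries agreed within sampling noise; the closest pair had a chi-square of 6.14 per gene. P-values measure the spread between libraries, which may be technical.

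Named genes were Mettl3, every carbonic anhydrase with a row, up to 4 called members and the 2 highest members of each list, the 5 genes most like Car12 and Car13, and the nearest gene with a row on each side of each member in the RefSeq order of GRCm38.p6, which served only for names and order. Of the genes this rule picks, 1 is not reported here.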

Additional observations from a re-analysis of the deposited data

How the results depend on the processing

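Log2 fold changes of the 5 carbonic anhydrases moved by less than their within-group SD with another scaling, test, filter or the block; leaving out 1 library moved 3 of them. The ranges were -1.42 to 0.07 for Car2 (reversed at 0.07 without Ctrl replicate 1), -1.90 to -1.69 for Car8, -2.26 to -0.96 for Car9, -5.38 to -3.60 for Car12, -1.85 to -1.71 for Car13 and -0.78 to -0.62 for Mettl3. Mettl3 was called by DESeq2 at -0.70 (adjusted p = 0.049). edgeR called 393 genes, DESeq2 1402, edgeR without a low-count filter 740, and between 0 and 3483 with 1 library left out, the highest without M3-CKO replicate 3. Over the lists, leaving out 1 library gave 0 to 1 called among other carbonic anhydrases, 0 to 5 bicarbonate transporters, 0 to 6 acid extrusion genes, 0 to 5 water and salt genes, 0 to 4 bicarbonate-using enzymes, 0 to 2 sensors, 0 to 2 IP3 receptors and 0 to 4 hypoxia genes; each highest count came without M3-CKO replicate 3. DESeq2 called 2 bicarbonate transporters, 5 acid extrusion genes, 1 water and salt gene, 1 bicarbonate-using enzyme, 2 sensors, 1 IP3 receptor and 2 hypoxia genes, and edgeR without a filter 1 bicarbonate-using enzyme. The cause of these differences was not tested. As the fit without M3-CKO replicate 3 called 3483 genes over the whole table, its list counts are not read as results about the lists. Among the genes named from the lists, that fit called Aqp5, Car5b, Egln3, Itpr1, Itpr3, Pcx, Ptprz1, Slc4a4, Slc16a3 and Slc16a7. Replicate numbers are shared between the groups. The r of deviations between same-numbered libraries was -0.026, 0.015 and -0.103. With 3 libraries per group these values cannot show whether the numbers pair libraries, and the labels do not state it. With the replicate block 20 genes were called over the whole table and 0 acid extrusion genes. Of the 5 carbonic anhydrases, Car8 and Car13 but not Car12 were called with it. At 87.8 to 103.8 counts per 10 CPM, Car12 in M3-CKO and the carbonic anhydrases below 1 CPM rest on few counts.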
